A study of Mus musculus with 19 samples.

Results

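The genes described here are 10 collagens that build the fibrils of the heart's connective tissue or bind to their surface: Col1a1, Col1a2, Col3a1, Col5a1, Col5a2, Col5a3, Col11a1, Col12a1, Col14a1 and Col16a1. They were taken by name, with earlier results of these data known, from the 18194 genes that the array annotation pairs with probe sets of a single gene, and 24 of the 45101 probe sets belong to them. Each gene is given by its brightest probe set (by the mean of the 19 arrays), and 9 of the 10 genes passed the filter on low values (a log2 value above 4 in at least 5 arrays), which 10733 genes passed in all. Col11a1 did not pass it.

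RNA was measured in the left ventricle of 19 male C57BL/6 mice, with 1 array per mouse and no genetic modification named. Surgery was done at 7 weeks of age, and the hearts were taken 4 weeks after it. In 7 mice the aorta had been banded and the label gives no heart failure (non-failing banded mice), in 7 it had been banded and the label gives heart failure (failing mice), and 5 had a sham operation. Banding narrows the aorta, so that the ventricle pumps against a raised load. By what criterion a mouse was labelled with heart failure is not stated. Left ventricular weight over tibia length, an index given in the labels, ran from 4.82 to 5.47 in sham, from 6.42 to 7.59 in non-failing and from 8.09 to 9.75 in failing mice. The lung index ran from 8.2 to 9.38, from 8.52 to 10.83 and from 17.9 to 24.62 in the same order, so failing mice had heavier lungs than every other mouse.

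Fibrillar collagens are made as procollagen chains that wind into triple helices in the endoplasmic reticulum, are secreted, lose their end propeptides and assemble into fibrils, which lysyl oxidases then crosslink. Type I, of Col1a1 and Col1a2 chains, and type III, of Col3a1 chains alone, form the bulk of the fibrils between heart muscle cells, where fibroblasts make most of them. Types V and XI lie inside the fibril and help set its start and its width. Types XII, XIV and XVI are fibril-associated collagens with interrupted triple helices, which sit on or near the fibril surface and link it to other matrix molecules.

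Promoter sequence was at hand for 6 of the 10 genes (RefSeq, build GRCm38.p6). The 4 examples follow, each the 250 bases before the annotated start, 5′ to 3′ on the strand of the gene. They were chosen to set a chain of type I and the chain of type III, which both rose in banded hearts, beside Col11a1, which was above the filter value in failing hearts only, and Col5a3, which did not pass in any comparison. Capitals mark matches on either strand to CCAAT (the CCAAT box), TATAAA (the TATA box), GGGCGG (the GC box) and CAGAC (an element that SMAD proteins, the messengers of TGF-beta, can bind). TGANTCA, the AP-1 element, was also searched and matched none of the 6 windows.
Col1a2: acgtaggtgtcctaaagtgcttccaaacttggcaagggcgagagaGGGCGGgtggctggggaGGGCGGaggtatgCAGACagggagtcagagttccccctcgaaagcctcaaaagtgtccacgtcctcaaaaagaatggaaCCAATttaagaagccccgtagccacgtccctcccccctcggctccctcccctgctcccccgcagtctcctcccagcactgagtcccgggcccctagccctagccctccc
Col3a1: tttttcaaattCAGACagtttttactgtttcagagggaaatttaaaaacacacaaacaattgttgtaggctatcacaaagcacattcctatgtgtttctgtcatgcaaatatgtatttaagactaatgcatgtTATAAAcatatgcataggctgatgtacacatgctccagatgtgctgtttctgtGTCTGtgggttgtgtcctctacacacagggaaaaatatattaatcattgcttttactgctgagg
Col11a1: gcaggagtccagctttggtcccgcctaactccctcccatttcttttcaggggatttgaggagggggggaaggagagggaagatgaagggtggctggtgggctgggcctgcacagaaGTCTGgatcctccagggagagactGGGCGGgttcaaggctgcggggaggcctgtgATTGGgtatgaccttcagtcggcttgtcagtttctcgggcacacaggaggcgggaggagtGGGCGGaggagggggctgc
Col5a3: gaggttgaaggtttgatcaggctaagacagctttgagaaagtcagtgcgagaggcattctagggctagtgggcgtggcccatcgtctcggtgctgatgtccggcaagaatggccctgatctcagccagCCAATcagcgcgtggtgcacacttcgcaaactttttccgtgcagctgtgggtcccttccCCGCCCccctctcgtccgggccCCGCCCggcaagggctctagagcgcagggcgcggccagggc
The Col1a2 window lies at chr6:4505368-4505617 (plus strand), that of Col3a1 at chr1:45311288-45311537 (plus), that of Col11a1 at chr3:114030290-114030539 (plus) and that of Col5a3 at chr9:20815068-20815317 (minus). Col1a2 held 1 CCAAT box, which began at -109 from the start, 2 GC boxes and 1 CAGAC element. Col3a1 was the one AT-rich window, with 35.2% G and C against a median of 52.4% over all windows. It held 1 TATA box, which began at -117 from the start, and 2 CAGAC elements but no CCAAT or GC box. Col11a1 had 1 CCAAT box, 2 GC boxes and 1 CAGAC element, and Col5a3 had 1 CCAAT box, 2 GC boxes and no CAGAC element. Col5a1 (2 GC boxes, 1 CAGAC) and Col16a1 (1 CCAAT, 1 GC box) make up the 6. Among 32851 promoter windows of the same length, 33.8% held CCAAT, 12.4% TATAAA, 32.7% GGGCGG, 42.2% CAGAC and 6.75% TGANTCA. Letters in a window do not show that a factor binds there. Col3a1 and Col5a2 are direct neighbours on chromosome 1.

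Collagen RNA was higher in banded hearts labelled without failure than in sham hearts, and higher again in failing hearts. In non-failing against sham hearts, 8 of the 9 tested collagens rose, while 10.8% of all genes tested were higher. In failing against sham hearts 8 of 9 rose, where 20.4% of all genes did, and in failing against non-failing hearts 6 of 9 rose, where 3.83% did. None of the 9 was lower in any of the 3 comparisons. The median log2 difference over the 9 genes was 0.99, 1.86 and 0.86 in that order, beside 0.02, 0.01 and -0.01 over all genes. Every failing heart lay above every sham heart for 7 of the 9, beside 8.5% of all genes. That held for 1 of 9 (Col1a1) between non-failing and sham hearts, beside 4.63%, and for 1 of 9 (Col5a1) between failing and non-failing hearts, beside 0.839%. The comparisons share groups and are not independent. All adjusted p-values below come from 1 limma fit of the 19 arrays with Benjamini-Hochberg adjustment over the 10733 genes, unless said otherwise, with 0.05 as the threshold.

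**Figure D1:**
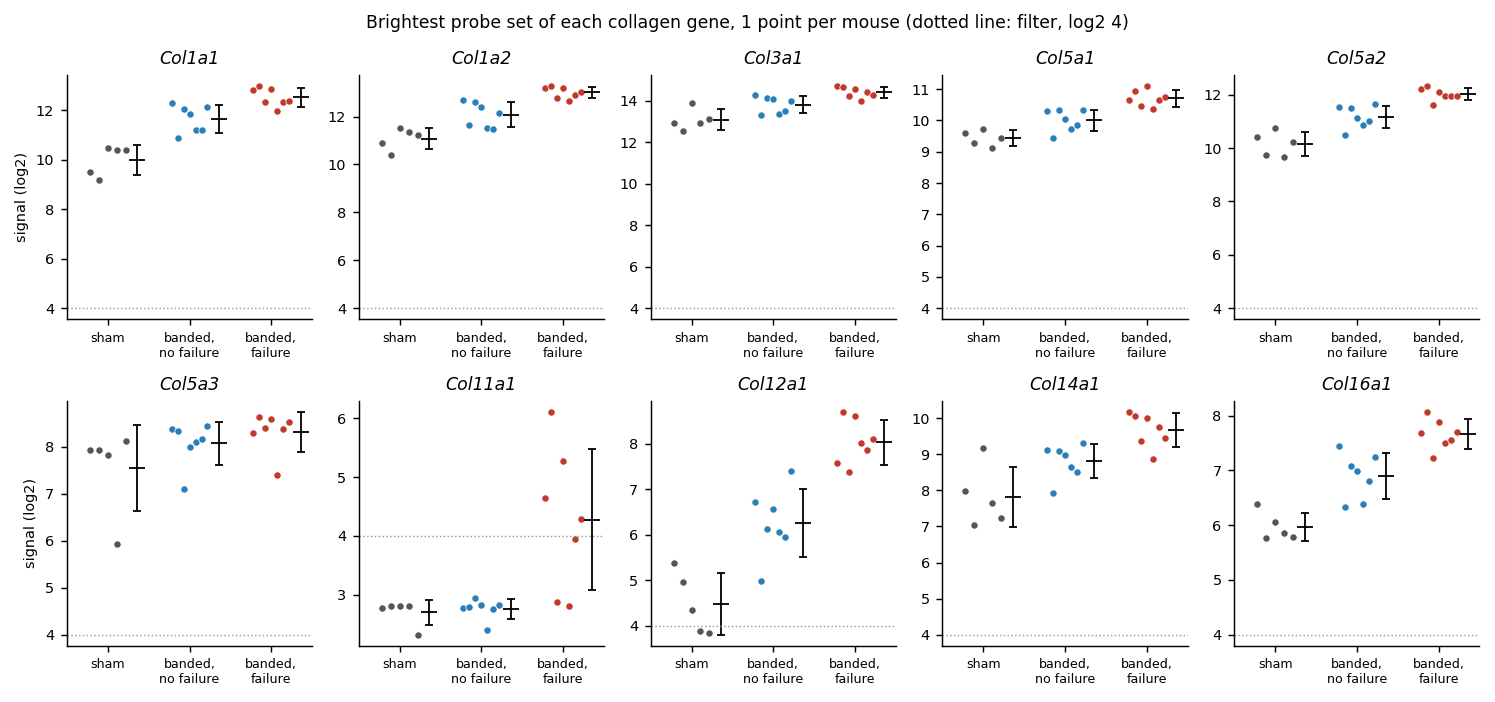
Log2 expression of each of the 10 collagens, with 1 point per mouse, in 5 sham, 7 non-failing banded and 7 failing banded hearts, and the mean ± SD of each group; the dotted line is the filter value, and each panel has its own axis. Most panels step up from sham to non-failing to failing hearts; Col5a3 overlaps in all 3 groups, and Col11a1 leaves the floor in failing hearts only.

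Values are log2 expression, so 1 unit is a doubling of the processed signal. Errors on a group are SD, and errors on a difference are SE. Whole ventricle was extracted, so more cells of a type and more RNA per cell cannot be told apart.

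Col1a1 encodes the alpha1 chain, which supplies most of the type I triple helix. Its log2 values in sham hearts were 9.51, 9.17, 10.48, 10.38 and 10.40. In non-failing hearts they ran from 10.87 to 12.31 with a median of 11.85, and in failing hearts from 11.96 to 13.00 with a median of 12.38. The lowest non-failing heart was above the highest sham heart, whereas non-failing and failing hearts overlapped. The group means were 9.99 ± 0.60 (SD, n = 5), 11.66 ± 0.56 (n = 7) and 12.53 ± 0.38 (n = 7). Col1a1 was 3.18-fold higher in non-failing than in sham hearts (log2 difference 1.67 ± 0.28, adjusted p = 0.000567). It was 5.81-fold higher in failing than in sham hearts (2.54 ± 0.28, adjusted p = 1.65e-06). Failing hearts stood 1.83-fold above non-failing ones (0.87 ± 0.25, adjusted p = 0.0392). This last call was lost when any of 3 non-failing mice (2, 5 or 6) or 3 failing mice (1, 2 or 4) was left out, with adjusted p from 0.0764 to 0.0933, without the filter (adjusted p = 0.0836), with averaged probe sets (0.65, adjusted p = 0.0676) and with the 18S array set, described below, as a block (0.68, adjusted p = 0.117).

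Col1a2 encodes the alpha2 chain of type I. The sham hearts read 10.88, 10.41, 11.54, 11.37 and 11.21, the non-failing hearts 11.48 to 12.71 (median 12.15) and the failing hearts 12.67 to 13.29 (median 13.03). Failing hearts lay above all sham hearts, and 1 non-failing heart (mouse 1, 12.71) reached into their range. Non-failing hearts were 2-fold above sham (SE 0.23 on the log2 scale, adjusted p = 0.00624; lost with the actin covariate described below, 0.84, adjusted p = 0.107), failing hearts 3.81-fold above sham (1.93 ± 0.23, adjusted p = 3.82e-06), and failing 1.91-fold above non-failing hearts (0.93 ± 0.21, adjusted p = 0.0109).

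Col3a1 encodes the chain of type III, the second main collagen of the ventricle, which mixes with type I in thin, pliant fibrils. Values in sham hearts were 12.91, 12.52, 13.90, 12.94 and 13.10. They were 13.29 to 14.27 (median 13.96) in non-failing and 14.00 to 14.72 (median 14.43) in failing hearts. Sham mouse 3 lay inside the non-failing range, and only the failing hearts cleared all sham hearts. Col3a1 was 1.65-fold higher in non-failing than in sham hearts (0.72 ± 0.21, adjusted p = 0.0262) and 2.51-fold higher in failing than in sham hearts (1.33 ± 0.21, adjusted p = 9.87e-05). The first of these calls was lost without sham mouse 1 or 2 or non-failing mouse 1 or 3, with adjusted p from 0.0515 to 0.0895, without the filter (adjusted p = 0.0583), with averaged probe sets (0.0504), with only the groups compared (0.0607) and with the actin covariate described below (0.0989). Between failing and non-failing hearts the log2 difference of 0.60 ± 0.20 did not pass (adjusted p = 0.0586). It passed when quantile normalised again (adjusted p = 0.0463), with only the groups compared (0.0375) and with trended robust eBayes (0.0497). Leaving out non-failing mouse 1 or 3, failing mouse 5 or sham mouse 2 or 3 also let it pass (adjusted p from 0.0282 to 0.0498). It did not pass in the other leave-one-out fits, with the array set as a block or with the actin covariate.

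Within each array, Col1a1 was set against the chains it assembles with, which removes whatever raised both alike. The difference Col1a1 minus Col3a1 moved up by 0.95 log2 in non-failing and by 1.21 in failing hearts relative to sham (both adjusted p = 0.00284, exact two-sided permutation tests, Benjamini-Hochberg over 9 tests). It lay between -3.43 and -2.56 in sham, between -2.42 and -1.84 in non-failing and between -2.09 and -1.65 in failing hearts, so no banded heart overlapped a sham heart. Averaging all probe sets of each gene left 0.54 (adjusted p = 0.0265) and 0.57 (adjusted p = 0.0227), and the groups then overlapped. Between failing and non-failing hearts the shift of 0.27 passed with the brightest probe sets (adjusted p = 0.027) and was 0.04 with averaged ones (adjusted p = 0.747).

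Col1a1 minus Col1a2 was higher by 0.67 in non-failing and by 0.61 in failing hearts than in sham with the brightest probe sets (both adjusted p = 0.00284, exact permutation tests). With averaged probe sets the same differences were 0.25 (adjusted p = 0.0925) and 0.00 (adjusted p = 0.999). Whether the chains of type I changed unequally therefore depended on the probe sets used. The smallest p these exact tests allow is 0.00126 for 5 against 7 mice.

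Type V collagen starts fibrils, and its chains Col5a1 and Col5a2 are the common pair of its triple helix. Col5a1 was 9.61, 9.29, 9.72, 9.11 and 9.45 in sham hearts, 9.45 to 10.33 (median 10.05) in non-failing and 10.36 to 11.11 (median 10.66) in failing hearts. All failing hearts lay above all non-failing hearts, though the gap between the groups was narrow. Non-failing hearts were 1.48-fold above sham (0.57 ± 0.16, adjusted p = 0.0218), failing hearts 2.41-fold above sham (1.27 ± 0.16, adjusted p = 7.55e-06) and failing 1.63-fold above non-failing hearts (0.70 ± 0.15, adjusted p = 0.00742). Without sham mouse 2 (adjusted p = 0.0604) or with the actin covariate (adjusted p = 0.0623) the first of these no longer passed.

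For Col5a2 the sham hearts gave 10.40, 9.76, 10.76, 9.65 and 10.22. Non-failing hearts ranged from 10.48 to 11.64 (median 11.14) and failing hearts from 11.63 to 12.34 (median 11.96). The rise was 2.01-fold in non-failing (1.01 ± 0.20, adjusted p = 0.00249) and 3.65-fold in failing hearts relative to sham (1.87 ± 0.20, adjusted p = 1.62e-06). Neighbouring groups overlapped narrowly, and failing hearts cleared all sham hearts. Failing stood 1.81-fold above non-failing hearts (0.86 ± 0.19, adjusted p = 0.00905). Col5a2 rose more than Col5a1: the within-array difference Col5a1 minus Col5a2 fell by 0.44 in non-failing and by 0.60 in failing hearts relative to sham (both adjusted p = 0.00379, exact permutation tests). Averaged probe sets gave -0.53 (adjusted p = 0.0312) and -0.82 (adjusted p = 0.0114). Failing and non-failing hearts differed by -0.16 in this measure (adjusted p = 0.117).

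**Figure D2:**
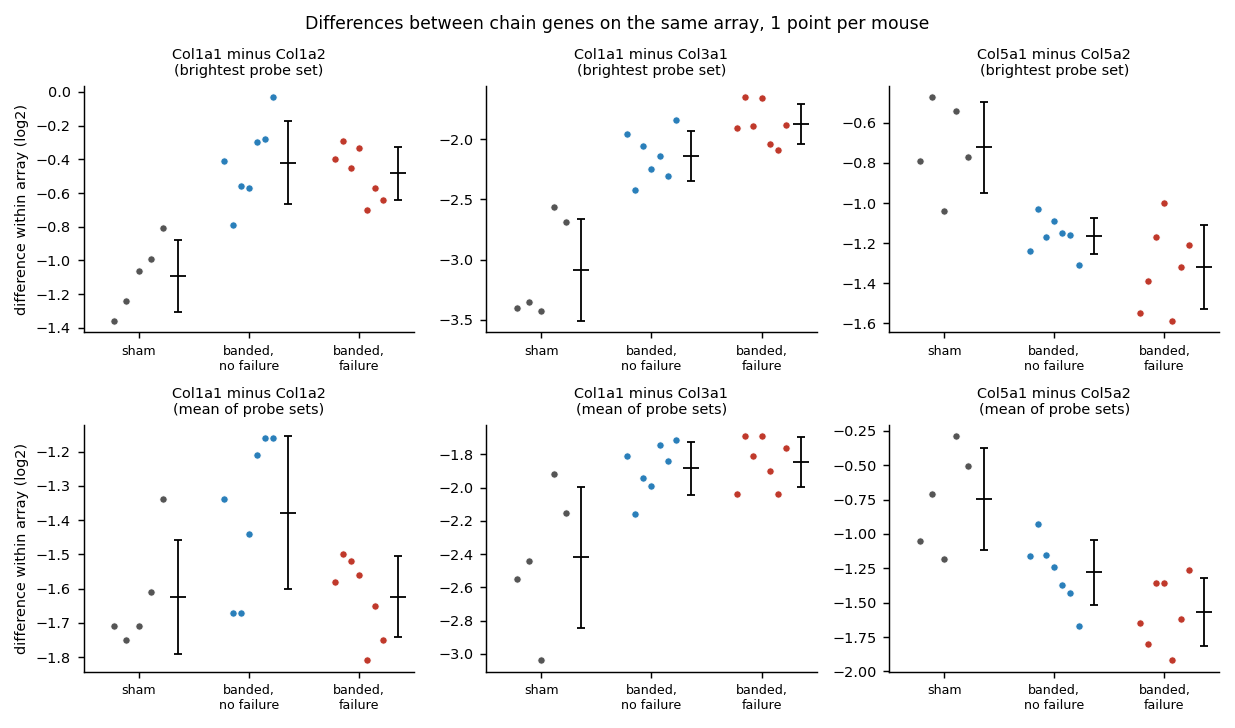
Within-array difference in log2 units between the chains of each pair, by group, with 1 point per mouse and the mean ± SD; the top row uses the brightest probe set of each gene and the bottom row the mean of its probe sets, on axes of their own. In the top row all sham hearts lie below all banded hearts for both Col1a1 pairs, and in the bottom row these groups overlap for both Col1a1 pairs.

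Col5a3, a further type V chain with a narrower tissue range, was the member that did not pass in any comparison. Its sham values were 7.93, 7.93, 7.83, 5.92 and 8.12, with mouse 4 far below the others. Non-failing hearts spanned 7.10 to 8.44 (median 8.16) and failing hearts 7.39 to 8.63 (median 8.40). The groups overlapped throughout. The log2 differences were 0.52 ± 0.33 (non-failing against sham, adjusted p = 0.285), 0.77 ± 0.33 (failing against sham, adjusted p = 0.0686) and 0.24 ± 0.30 (failing against non-failing, adjusted p = 0.653). Leaving out failing mouse 5 (0.92, adjusted p = 0.0261) or sham mouse 5 (0.91, adjusted p = 0.0446) brought the difference between failing and sham hearts past the threshold. The array set as a block (1.09, adjusted p = 0.027) and the actin covariate (1.26, adjusted p = 0.0439), both described below, did so too. The leave-one-out values of that difference ran from 0.36 to 0.92. Without sham mouse 4 it was 0.36 and the difference between non-failing and sham hearts was 0.12, and the difference between the banded groups ran from 0.08 without non-failing mouse 3 to 0.40 without failing mouse 5.

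Col11a1 encodes a chain of type XI, the form of this regulatory collagen best known from cartilage. All sham hearts (2.32 to 2.80) and all non-failing hearts (2.40 to 2.94) were below the filter value, at the floor where processed values have no order. Failing mice 1 to 7 read 4.64, 6.11, 2.88, 5.28, 2.80, 3.95 and 4.28. Thus 4 of 7 failing hearts rose above the filter value, and mice 3 and 5 stayed at the floor. A second probe set of the gene gave 4.35, 6.06, 2.83, 5.53, 3.25, 3.57 and 3.48 in the same mice, so both were highest in mice 2 and 4. Since the filter removed the gene, its test comes from the fit of all 18194 genes without a filter. There failing hearts passed against sham (1.58 ± 0.43 on the processed scale, adjusted p = 0.0148) and against non-failing hearts (1.52 ± 0.40, adjusted p = 0.0417), as 10.8% and 1.43% of all genes did in that direction. The first call was lost when only the groups compared were fitted (adjusted p = 0.0729) and with the low 18S arrays alone, described below (1.72, adjusted p = 0.166). The second call lay near the threshold: leaving out 1 mouse ended it in 15 of 19 cases, sham mice among them, with differences between 1.21 and 1.76. The second call was also lost with the 18S array set as a block (1.51, adjusted p = 0.0797) and with the low 18S arrays alone (1.44, adjusted p = 0.335). Fitting only the groups compared ended it too (adjusted p = 0.0852). These log2 differences start from the floor of the processed values, so they do not measure the size of a change, and no fold is given. Non-failing and sham hearts differed by 0.06 ± 0.43 (adjusted p = 1).

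**Figure D3:**
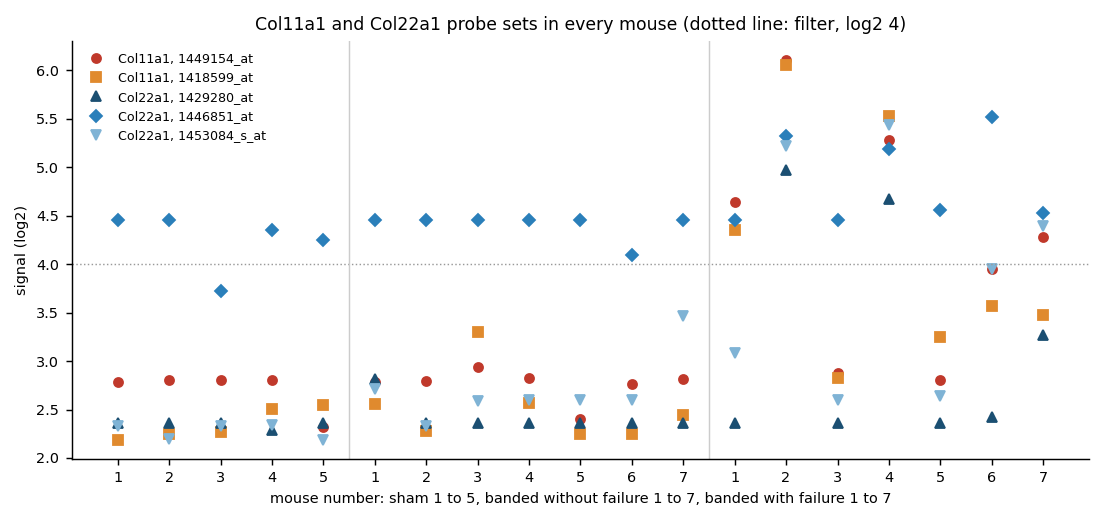
Log2 signal (vertical axis) of 2 Col11a1 and 3 Col22a1 probe sets in every mouse (horizontal axis), with sham mice first, then non-failing and failing mice; the dotted line is the filter value. Both Col11a1 probe sets are highest in failing mice 2 and 4 and stay low in sham and non-failing mice.

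By the brightest probe set of each gene, Col12a1, a fibril-associated collagen abundant where tissue carries tension, showed the largest log2 differences in each comparison. Sham hearts gave 5.38, 4.95, 4.34, 3.89 and 3.83, so 3 of 5 were above the filter value. Non-failing hearts ranged from 4.98 to 7.41 (median 6.13) and failing hearts from 7.37 to 8.70 (median 8.02). Non-failing mouse 7 (7.41) just passed the lowest failing heart, and non-failing mouse 2 (4.98) lay inside the sham range. The log2 difference was 1.78 ± 0.35 between non-failing and sham (adjusted p = 0.00211) and 3.56 ± 0.35 between failing and sham hearts (adjusted p = 5.34e-07). No fold is given against sham because part of that group was below the filter value, and these log2 differences depend on the floor in the same way. Failing hearts were 3.43-fold above non-failing hearts (1.78 ± 0.32, adjusted p = 0.00384). In the fit over probe sets, a second Col12a1 probe set rose by 0.69 between sham and non-failing hearts and did not pass (adjusted p = 0.0895). It passed with 1.89 in failing against sham and 1.20 in failing against non-failing hearts. It was above the filter value in 0 of 5 sham and 1 of 7 non-failing hearts. With averaged probe sets the Col12a1 difference between non-failing and sham hearts was 1.24, below those of Col1a1 (1.32) and Col5a2 (1.28).

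Col14a1 encodes a related collagen that binds the fibril surface and limits fibril growth. Its sham values of 7.98, 7.03, 9.17, 7.66 and 7.24 were widely spread. Non-failing hearts ran from 7.94 to 9.32 (median 8.99) and failing hearts from 8.88 to 10.18 (median 9.77). Sham mouse 3, at 9.17, overlapped both banded groups. Failing hearts were 3.63-fold above sham (1.86 ± 0.32, adjusted p = 0.000175). The 1.99-fold rise in non-failing hearts (0.99 ± 0.32, adjusted p = 0.0395) was lost in 8 of the 19 leave-one-out fits. With all mice kept, it was also lost without the filter (adjusted p = 0.0857) and with only the groups compared (adjusted p = 0.0704). The difference between failing and non-failing hearts, 0.87 ± 0.29, did not pass (adjusted p = 0.0658). It passed with averaged probe sets (adjusted p = 0.0426) and with only the groups compared (0.031). Leaving out failing mouse 5 or sham mouse 3 also let it pass (adjusted p = 0.0368 and 0.0255). It did not pass in the other leave-one-out fits, with the array set as a block or with the actin covariate. In the fit over probe sets, the second Col14a1 probe set passed (1.13, adjusted p = 0.0484) and the first did not (adjusted p = 0.0844).

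Col16a1 encodes a minor collagen that joins small fibrils and contacts integrins. It was 6.38, 5.77, 6.05, 5.85 and 5.79 in sham, 6.34 to 7.45 (median 6.99) in non-failing and 7.22 to 8.07 (median 7.68) in failing hearts. Only sham mouse 1 reached the non-failing range, and failing hearts cleared all sham hearts. Col16a1 was 1.91-fold higher in non-failing (0.93 ± 0.18, adjusted p = 0.00204) and 3.23-fold higher in failing than in sham hearts (1.69 ± 0.18, adjusted p = 1.42e-06). It was 1.7-fold higher in failing than in non-failing hearts (0.76 ± 0.17, adjusted p = 0.00955).

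**Figure D4:**
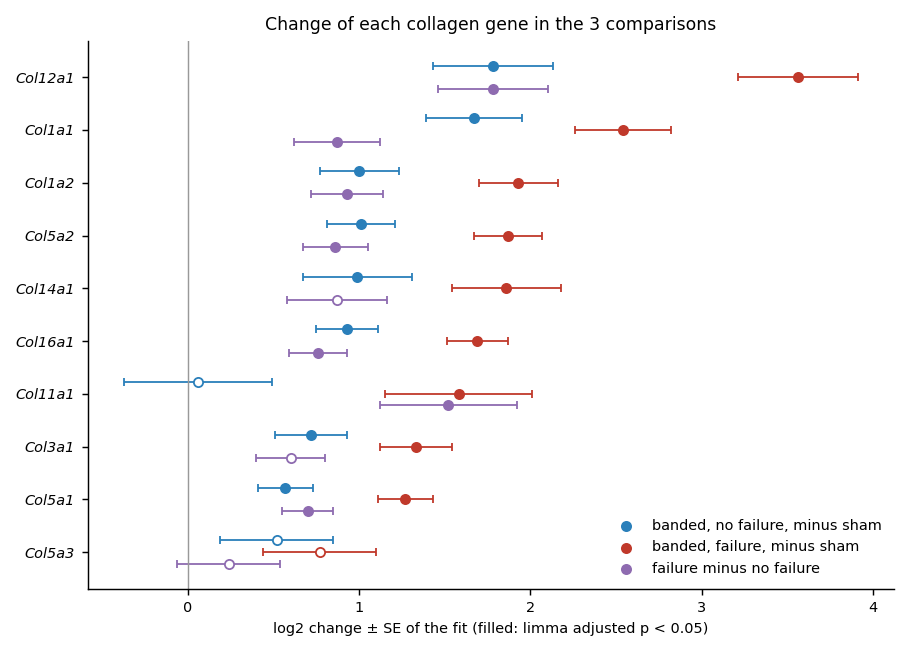
Log2 difference ± SE of the limma fit (horizontal axis) of each collagen in the 3 comparisons, by colour, with Col11a1 from the fit without a filter; filled points passed an adjusted p of 0.05 and open points did not. All points lie above 0, and Col12a1 is the farthest right in each comparison.

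The other probe sets of these genes also rose for the most part. Of the 24 probe sets 17 passed the filter, and in a limma fit over all 20497 such probe sets 14 of the 17 rose in non-failing and 16 in failing hearts against sham, where 9.01% and 20.1% of all probe sets did. Between failing and non-failing hearts 10 of 17 rose, where 2.57% did. The 16 and the 10 include the second Col12a1 probe set, which passed the filter only through banded hearts. It was above the filter value in 0 of 5 sham, 1 of 7 non-failing and 7 of 7 failing hearts. Its calls are therefore not independent of the filter. None of the 17 had a difference below 0, and the differences ran from 0.52 to 1.78, from 0.77 to 3.56 and from 0.24 to 1.78 in the 3 comparisons. The probe sets of a gene agreed in direction but not in size. The second Col1a1 probe set was higher by 0.97 and 1.39 against sham, beside 1.67 and 2.54 for the first, and its difference of 0.43 between failing and non-failing hearts did not pass (adjusted p = 0.296). The second Col5a2 probe set was higher by 1.56 and 2.61, more than the first. The second Col3a1 probe set did not pass between non-failing and sham hearts (0.84, adjusted p = 0.11) or between the banded groups (0.62, adjusted p = 0.249). Between the banded groups the dimmest Col5a1 probe set did not pass (0.63, adjusted p = 0.124), whereas the other ones did (adjusted p = 0.0114 and 0.0279). In the fit over probe sets the first Col1a1 probe set also missed the threshold between failing and non-failing hearts (adjusted p = 0.0522), as did both Col11a1 probe sets in the fit without a filter (adjusted p = 0.071 and 0.0623).

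**Figure D5:**
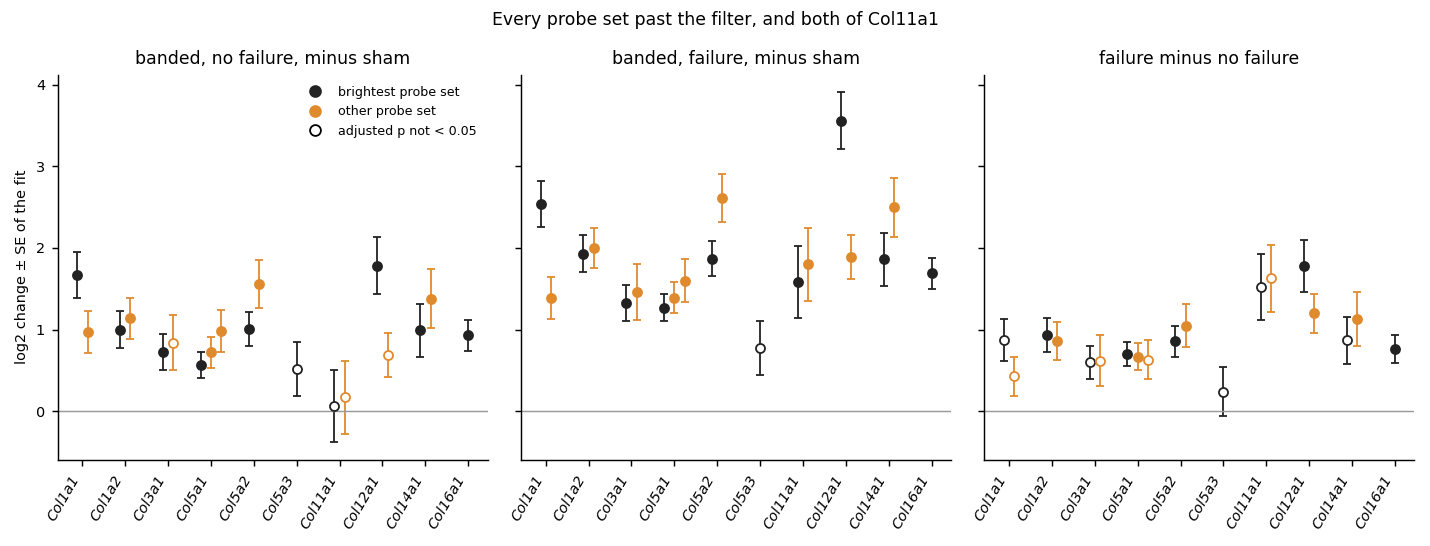
Log2 differences ± SE (vertical axis) of the probe sets of each gene in the 3 comparisons, black for the brightest and orange for the others, with filled points where the adjusted p in the fit over probe sets was below 0.05 (Col11a1 from the fit without a filter). The 17 probe sets past the filter all lie above 0.

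Some measurements of array quality differed between the groups. The 18S ribosomal control probes split the arrays into 6 with high signal (sham mice 1 to 3 at 9.03 to 10.1 and non-failing mice 5 to 7 at 11 to 11.8 log2) and 13 with low signal, at or below 7.62, among them all failing hearts. The 3′ minus 5′ signal of the actin control, a measure of RNA integrity and labelling, was 0.943 to 1.02 in sham, 0.672 to 0.898 in non-failing and 0.661 to 0.905 in failing hearts. Among arrays with low 18S signal alone, 4 of 9 collagens rose in non-failing hearts, 8 rose in failing hearts against sham, and 1 (Col12a1) rose in failing against non-failing hearts. The shares of all genes were 1.96%, 13.6% and 0.615%. The median difference over the 9 genes was then 1.15, 1.84 and 0.70, beside 0.99, 1.86 and 0.86 in all arrays. Their part in the result was not tested beyond these fits. Among arrays with high 18S signal, 1 of 9 (Col1a1) rose in non-failing hearts, where 11% of all genes did, with a median of 0.77. With the array set as a block 8, 9 and 5 of 9 rose, beside 13.5%, 18.4% and 3.89% of all genes. With the actin measure as a covariate 5, 9 and 6 rose, beside 7.86%, 14.9% and 4.7%. All 9 differences were above 0 in each of these fits. Calls that the block or the covariate ended among the 9 are given with each gene.

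Individual mice tended to be high or low for several collagens at once. Non-failing mouse 2 was the lowest of its group for 7 of the 9 genes past the filter, and it had the lowest ventricular index (6.42) and the highest lung index (10.83) among the non-failing mice. Non-failing mice 7 and 1 were the highest for 5 and 4 genes. Among failing mice, mouse 5 was the lowest for 6 and mouse 2 the highest for 6. Sham mouse 3 was the highest for 6 and sham mouse 2 the lowest for 5.

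Organ weights were compared with collagen levels within each banded group, over 7 mice each, in 40 relations (10 genes, both weights, both groups). None passed after adjustment (smallest adjusted p = 0.372, exact permutation tests of Pearson's r). For the ventricular index the median r over the 10 genes was 0.64 in non-failing hearts, with 9 of 10 above 0, and -0.16 in failing hearts, with 2 of 10 above 0. For the lung index it was -0.47 in non-failing and -0.56 in failing hearts, with 2 and 0 of 10 above 0. Without the 2 mice farthest from the median weight, the median r for the ventricular index was -0.10 in non-failing hearts (4 of 10 above 0) and -0.55 in failing hearts (0 of 10). For the lung index it was then 0.17 (7 of 10) and -0.16 (2 of 10), so the signs in non-failing hearts rested on those mice. Genes measured in the same mice are not independent. Against the lung index in failing hearts, 3 of 10 genes had an unadjusted p below 0.05 in the exact permutation test of r. These were Col16a1 (r = -0.82, p = 0.03), Col5a2 (r = -0.80, p = 0.0333) and Col12a1 (r = -0.77, p = 0.0347), each with adjusted p = 0.372. Spearman's rho was -0.57, -0.68 and -0.64 in that order (exact permutation p = 0.2, 0.11 and 0.139, each with adjusted p = 0.879). Without the 2 mice farthest from the median lung index r was -0.10, 0.15 and -0.35, so these relations rested on those mice.

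Of the 11 other genes of fibrillar and fibril-associated collagens, 10 were on the array and 2 passed the filter. Both passed against sham in failing hearts: Col22a1, found at tissue junctions (adjusted p = 0.0127), and Col27a1, a fibrillar collagen of cartilage (adjusted p = 0.0106). The Col22a1 probe set read the same value, 4.46, in 10 of the 19 arrays (2 sham, 6 non-failing and 2 failing), and that of Col27a1 read 5.86 in 8 (3, 3 and 2). Repeated values have no order, so the size of these differences is not given. Col2a1, Col11a2, Col24a1, Col9a1, Col9a2, Col9a3, Col19a1 and Col20a1 did not pass the filter. The tested Col22a1 probe set read 3.72 to 4.46 in sham hearts and stood highest in failing mice 6, 2 and 4 (5.52, 5.32 and 5.19). Among failing mice 1 to 7, another Col22a1 probe set, under the filter, read 3.08, 5.22, 2.60, 5.44, 2.64, 3.95 and 4.39. Mice 2 and 4 were highest there, as they were for Col11a1.

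Genes that process and crosslink collagen rose in part. Of all genes tested 10.8%, 20.4% and 3.83% rose in the 3 comparisons, the background for the higher counts here and in the lists below. Of 22 tested, 10 rose and 0 fell in non-failing hearts, 18 rose and 1 (Adamts3, a procollagen propeptidase, log2 difference -0.53 ± 0.16, adjusted p = 0.0123) fell in failing hearts against sham, and 7 rose and 0 fell in failing against non-failing hearts. The medians were 0.27, 0.69 and 0.32, smaller than those of the collagens. Lox, the lysyl oxidase that crosslinks fibrils, rose 2.55-fold in non-failing (adjusted p = 0.0183) and 10.5-fold in failing hearts (adjusted p = 1.62e-06), and stood 4.13-fold higher in failing than in non-failing hearts (adjusted p = 0.0027). Its relative Loxl3 rose 2.1-fold and 4.39-fold against sham (adjusted p = 0.000668 and 1.13e-07). P3h2, a prolyl 3-hydroxylase, rose 2.67-fold and 4.6-fold (adjusted p = 2.91e-06 and 5.44e-09).

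Of 17 tested genes for fibril surface proteins and collagen receptors, 8 rose in non-failing, 13 in failing hearts against sham and 8 between failing and non-failing hearts, and 0 fell (medians 0.54, 0.93 and 0.36). The small proteoglycan Fmod, fibromodulin, was 7.81-fold higher in failing than in sham hearts (2.97 ± 0.49, adjusted p = 0.000133) and 3.49-fold higher than in non-failing hearts (adjusted p = 0.0184). Bgn, biglycan, rose 2.15-fold and 3.65-fold against sham (adjusted p = 0.000123 and 8.38e-08). Fn1, fibronectin, on which new fibrils are laid down, rose 1.97-fold and 3.7-fold (adjusted p = 0.0196 and 3.26e-05). Mrc2, a receptor that takes up collagen for breakdown, rose 2.13-fold and 2.87-fold against sham (adjusted p = 0.00051 and 3.75e-06).

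Genes of fibril breakdown and its inhibitors were in part higher too. Of 8 tested, 4 rose in non-failing, 6 in failing hearts against sham and 4 between the banded groups, with 0 lower (medians 0.53, 1.20 and 0.67). Timp1, an inhibitor of matrix metalloproteinases, rose 2.34-fold and 7.12-fold against sham (adjusted p = 0.0288 and 9.9e-06). Mmp2, a gelatinase, rose 2.07-fold and 3.63-fold (adjusted p = 0.000972 and 6.5e-07), and Ctsk, a cathepsin that cleaves triple-helical collagen, rose 2.29-fold and 4.99-fold (adjusted p = 0.00942 and 7.43e-06).

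Some markers of the cells that make collagen were higher too, and their part in the result was not tested. Of 11 fibroblast markers 4 rose in non-failing and 8 in failing hearts against sham (medians 0.20 and 0.56), and 4 rose between the banded groups (0.27), so 7 of 11 did not pass in the first and the last comparison. Among these, Dpt and Ddr2 differed by -0.22 and -0.04 between non-failing and sham hearts. The summed signal of the 11 fibroblast markers ran from 60196 to 75543 in sham, from 63875 to 82418 in non-failing and from 79581 to 100454 in failing hearts. Of 6 myofibroblast markers 3, 5 and 2 rose (medians 1.11, 1.52 and 0.41), and their summed signal was 6454 to 11124, 10447 to 22113 and 23088 to 28839. Postn, periostin, which is secreted by activated fibroblasts, ran from 10.57 to 11.41 log2 in sham, from 12.01 to 13.59 in non-failing and from 13.78 to 14.28 in failing hearts. Cthrc1, another marker of activated fibroblasts, was above the filter value in 0 of 5 sham, 4 of 7 non-failing and 7 of 7 failing hearts. It passed the filter only through the banded groups, yet it is counted among the 3, 5 and 2 that rose. The other one of the 2 between the banded groups was Postn (1.07 ± 0.21, adjusted p = 0.00568). Acta2, smooth muscle actin, was higher by 0.27 ± 0.13 in failing than in sham hearts (adjusted p = 0.119) and did not pass. Nor did it pass between non-failing and sham hearts (0.24 ± 0.13, adjusted p = 0.234) or between the banded groups (0.03 ± 0.12, adjusted p = 0.908). Dcn, Lum and Ddr2 stand both among the fibroblast markers and among the genes of fibril surface or receptors.

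Markers of other cell types were counted the same way. Of all genes tested, 6.53% were lower in non-failing and 18.9% in failing hearts against sham, and 5.65% in failing against non-failing hearts, which is the background for the lower counts here. For the higher counts the shares of all genes were 10.8%, 20.4% and 3.83% in the same order. All 10 cardiomyocyte markers passed the filter: 1 rose and 0 fell in non-failing hearts, 1 rose (Myh7, by 3.52 ± 0.24, adjusted p = 1.13e-08) and 4 fell in failing hearts against sham, and 1 rose and 1 fell between the banded groups. Of 7 macrophage and leukocyte markers 0 passed in any comparison, and their summed signal was 4912 to 11783, 6132 to 7468 and 4989 to 8511. Smooth muscle and pericyte markers (7) gave 2, 1 and 0 higher and 1, 2 and 2 lower, and endothelial markers (6) gave 1, 2 and 0 higher and 0, 0 and 1 lower. Of the chondrocyte and bone markers, the defining Col2a1 and Acan and also Ibsp were below the filter; Comp, a cartilage protein that binds collagen, rose by 2.14 ± 0.47 and 4.00 ± 0.47 against sham (adjusted p = 0.00409 and 3.09e-06), and Sox9, a regulator of cartilage genes, by 1.11 ± 0.27 in failing hearts (adjusted p = 0.00292) and also in non-failing hearts (adjusted p = 0.0149). The remaining tested marker of the list, Chad, chondroadherin, differed by -1.04 ± 0.65 and -0.49 ± 0.65 against sham and did not pass (adjusted p = 0.287 and 0.576). The list's summed signal was 161 to 704, 342 to 1840 and 2068 to 3574. Of the tendon markers, Tnmd, tenomodulin, was above the filter value in 0 of 5 sham, 5 of 7 non-failing and 7 of 7 failing hearts, Scx was higher by 0.50 ± 0.14 in failing than in sham hearts (adjusted p = 0.0095), Mkx was below the filter, and the summed signal was 28.1 to 51.7, 51.7 to 157 and 71.3 to 356. For the mesothelial list, 4 of 5 markers were below the filter, with a summed signal of 46.2 to 55.2, 48 to 89.6 and 39.8 to 435. Atrial markers (5) gave 1, 1 and 0 higher and 1, 1 and 2 lower, and the 2 tested skeletal muscle markers of 5 gave 1, 1 and 0 higher and 0, 1 and 1 lower. The part of these cell types in the collagen result was not tested.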

How the data were processed

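The authors deposited log2 expression values for 45101 probe sets of an Affymetrix mouse array, 1 array per mouse, made with GCRMA, as named in the submitters' processing notes; its version was not given in the sources used here. This method corrects background by probe sequence, which draws dim probe sets to a floor and compresses their differences. The deposited values were not renormalised.

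Groups came from the labels. Gene names came from the platform annotation held by GEO, and of 45101 probe sets 34958 had 1 symbol, 932 several and 9211 none listed. A probe set was kept with log2 above 4 in at least 5 arrays, and a gene was represented by its brightest probe set. The 3 groups were fitted together in limma 3.58.1 (R 4.3.3) with lmFit and eBayes, Benjamini-Hochberg adjustment and a threshold of 0.05, after the fit had been checked on simulated data. Chain pairs and organ weights used exact permutation tests (Python 3.11.15). Array sets were split at an 18S value of 8. Summed marker signals add the values on the linear scale.

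Alternatives were no filter, a filter at log2 5, averaged probe sets, quantile normalisation, equal array medians, the array set as a block or alone, the actin measure as a covariate, only the groups compared, trended robust eBayes and leaving out each mouse. All 10 collagens are named in every comparison; from the lists, up to 3 genes with the largest change past the threshold per comparison, other collagens past the filter, and a few markers chosen after their values were seen. The members and the lists were chosen with earlier results of these data known. The labels do not say whether mice shared litters or batches. The number of arrays limits the precision, and no sequencing depth applies. The probe positions are not used here, since no source at hand states the genome build behind them.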

Additional observations from a re-analysis of the deposited data

Results flagged for a closer look

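In each of the 30 combinations of gene and group, the highest and the lowest mouse were compared with the spread of the rest by Dixon's criterion, and 5 values stood apart. Chance flags about 1 in 20 groups. Col5a3 had a lone low mouse in every group. It was 5.92 in sham mouse 4, where the next value was 7.83, 7.10 in non-failing mouse 3, where the next was 7.99, and 7.39 in failing mouse 5, where the next was 8.29. In sham mouse 4 the natriuretic peptide gene Nppb, at 11.74, was also lower than in the other sham hearts, which were at 13.51 or above. Col11a1 was 2.32 in sham mouse 5, where the next value was 2.78, and 2.40 in non-failing mouse 5, where the next was 2.76; both groups lie at the floor of the processed values, where values have no order.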

How the results depend on the processing

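Leaving out sham and banded mice in turn, or changing the settings, left the differences of all 10 collagens above 0 in each comparison, other than that of Col11a1 between non-failing and sham hearts, which ran from -0.03 to 0.12 with a mouse left out and was -0.13 with the high 18S arrays alone (-0.03 was without sham mouse 5). Of the 9 tested collagens, those called in non-failing against sham hearts numbered 4 with the low and 1 with the high 18S arrays alone and 5 with the actin covariate, and 5 to 8 with a mouse left out (5 without sham mouse 2). In failing against sham hearts leaving out a mouse gave 8 to 9. In failing against non-failing hearts they numbered 1 with the low 18S arrays alone and 5 to 8 with a mouse left out. Fewer arrays enter the fits by array set. Genes called in all numbered 1865, 4220 and 1017 in the 3 comparisons. They became 343, 2670 and 149 with the low 18S arrays alone, and 1199 and 2705 against sham with the actin covariate. With a mouse left out they were 1185 to 2200 (1185 without sham mouse 2), 3538 to 4388 and 508 to 1146 (508 without non-failing mouse 5, 672 without non-failing mouse 6, 599 without failing mouse 2).

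The chain pairs were less stable. With averaged probe sets, Col1a1 minus Col1a2 was 0.25 and 0.00 against sham, and Col1a1 minus Col3a1 was 0.04 between the banded groups; the cause was not tested. With the low 18S arrays alone the 3 pairs were 0.32, 0.46 and -0.48 in non-failing and 0.42, 0.75 and -0.67 in failing hearts against sham, where 2 sham arrays allow few regroupings and no pair passed. Between the banded groups Col1a1 minus Col1a2 then turned to 0.10 and Col1a1 minus Col3a1 was 0.30. With a mouse left out these pairs were -0.12 to 0.00 (0.00 without non-failing mouse 7) and 0.22 to 0.32 between the banded groups, and Col5a1 minus Col5a2 was -0.21 to -0.11, which passed without failing mouse 4. No paired analysis was possible because the labels give no replicate numbers that the groups share. Differences at the floor of the processed values have no order, and dim probe sets have compressed differences.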
